A study of Sus scrofa with 4 samples.

Results

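The genes described here encode the proteins of the mitochondrial ribosome and were taken from the deposited expression table of pig longissimus dorsi, the long muscle of the back. Members were the rows named MRPL or MRPS followed by a digit with a mean of at least 1 FPKM (expression per unit of feature length and of library size, as deposited by the authors) over the 4 breeds. Of the 18208 genes in the table, 57 carried such a name, each symbol had 1 row, and 56 passed the minimum. These 56 comprised 35 genes named for the large subunit (MRPL) and 21 named for the small subunit (MRPS). MRPL51 was left out, being listed at 0 in 3 libraries and at 0.557 FPKM in the Yorkshire library.

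Each breed had 1 library of total RNA from this muscle. The indigenous Chinese type was represented by the Diannan Small Ear pig (DSP) and the Tibetan pig (TP), and the introduced type by Landrace (LL) and Yorkshire (YY). No treatment, genotype, age, sex, feeding or number of animals per library was given in the labels, so the 2 libraries of a type are breeds and the spread within a type is the spread between breeds. Sequencing depth was not given, and no counting error could be computed.

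Mitochondria carry their own ribosome, which makes the proteins encoded in the mitochondrial genome, all of them parts of the respiratory chain or ATP synthase. The ribosomal RNAs of this particle come from the mitochondrial genome, whereas its proteins are encoded in the nucleus, made in the cytosol and imported. Some of these proteins have counterparts in bacterial ribosomes and others are found only in mitochondrial ribosomes. In skeletal muscle, fibres rich in mitochondria depend on this machinery for oxidative energy supply.

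The member genes were lowest in LL and highest in YY in nearly every case, with both indigenous breeds between them. As deposited, 53 of 56 members had their lowest FPKM in LL, against 26.6% of the 11652 genes averaging 1 FPKM or more, and 51 of 56 had their highest in YY, against 32.8%. Both held for 48 members, against 17.6% of all genes. The order LL, DSP, TP, YY from low to high was found for 41 members, and 7 more had LL, TP, DSP, YY. DSP was above LL for 55 members (61.6% of genes compared) and YY above TP for 54 (62.8%), but the medians of both differences came to 0.03 or less in size when the libraries were scaled to equal sums over nuclear loci or, for TP and YY, without the 50 most abundant genes. Relative to the median of all genes, DSP minus LL stayed between 0.28 and 0.33 and TP minus YY between −0.33 and −0.25 with each scaling. In whole-muscle RNA, fewer cells of a type and less RNA per cell cannot be told apart.

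**Figure D1:**
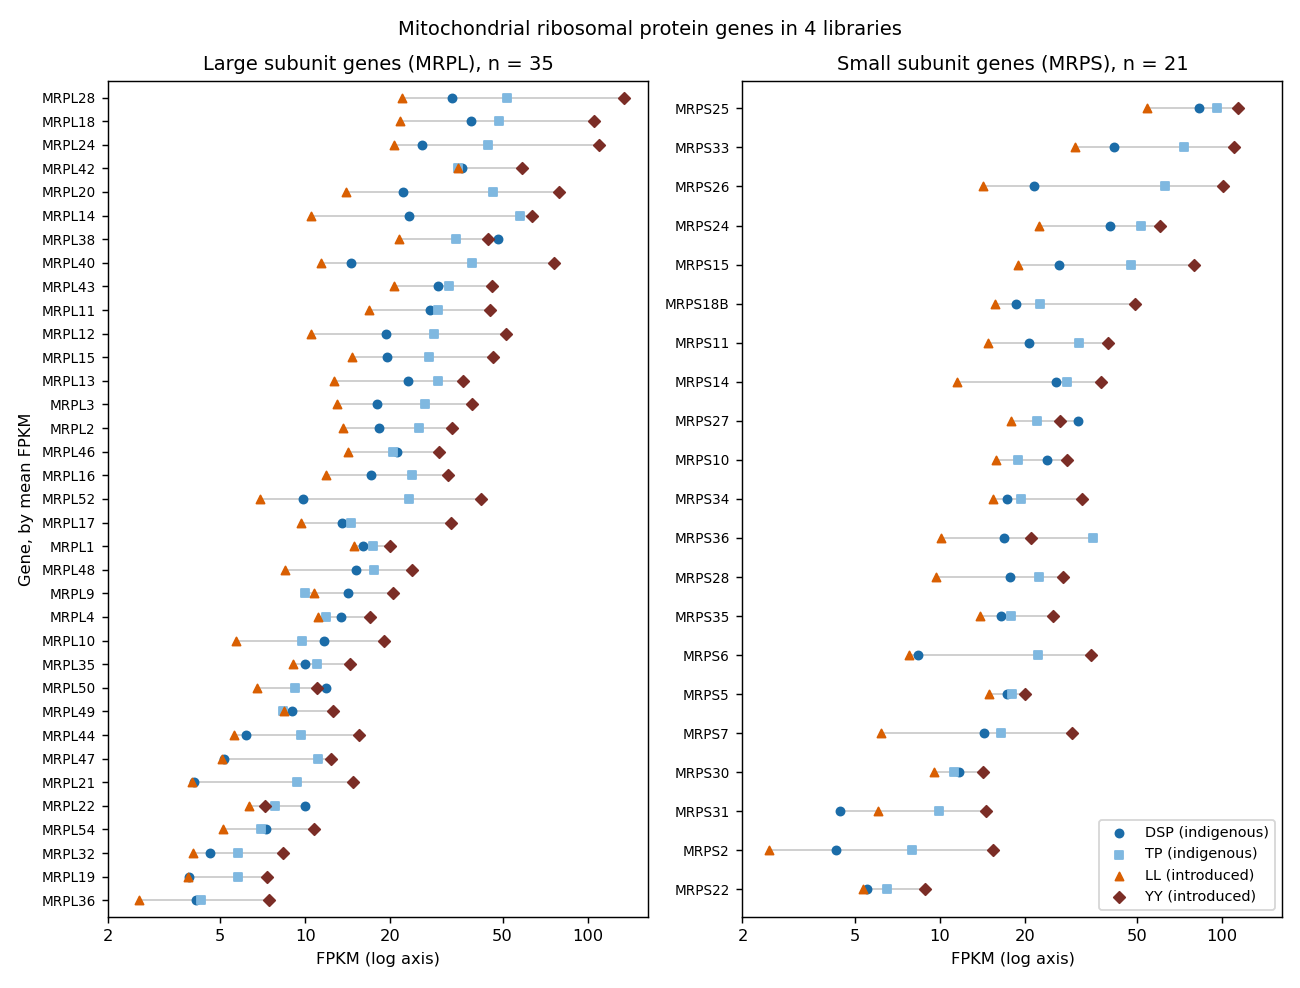
FPKM (log axis) of each of the 35 large and 21 small subunit genes in the 4 libraries, 1 symbol per library and 1 row per gene, ordered by mean FPKM. The LL symbol lies at the left end of 53 rows and the YY symbol at the right end of 51.

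The summed levels had the same order for both subunits. The 35 large subunit genes summed to 412 FPKM in LL, 605 in DSP, 794 in TP and 1327 in YY. The 21 small subunit genes summed to 318 FPKM in LL, 467 in DSP, 642 in TP and 888 in YY. By type, the large subunit sum was 699 ± 134 FPKM (SD, n = 2) in indigenous and 870 ± 647 (SD, n = 2) in introduced libraries. The small subunit sum was 555 ± 124 FPKM (SD, n = 2) against 603 ± 403 (SD, n = 2). Both differences were smaller than the spread within the introduced type (two-sided exact permutation p = 1 for each, where 2 against 2 libraries cannot go below 0.333).

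Which library was the extreme depended on how the libraries were scaled, while the gap between LL and YY held its direction for most members. With the libraries brought to a common median ratio, 50 members were lowest in LL and 53 highest in YY. With equal sums once the 50 most abundant genes were set aside, 37 members were lowest in LL and 25 highest in YY, against 19.2% and 17.0% of all genes on that scale. With equal sums over nuclear loci of at least 300 bp, 24 were lowest in LL and 28 highest in YY, against 11.98% and 15.99%. The members above YY in LL numbered 0 as deposited, 0 with the median ratio, and 1 and 5 with the sums. Scaling shifted the median of all genes in LL minus YY from 0.01 to between −0.06 and 0.49 on the log2(FPKM + 1) scale. Relative to that median, the members' median difference was −1.35 as deposited and between −1.37 and −1.29 with the other scalings.

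**Figure D2:**
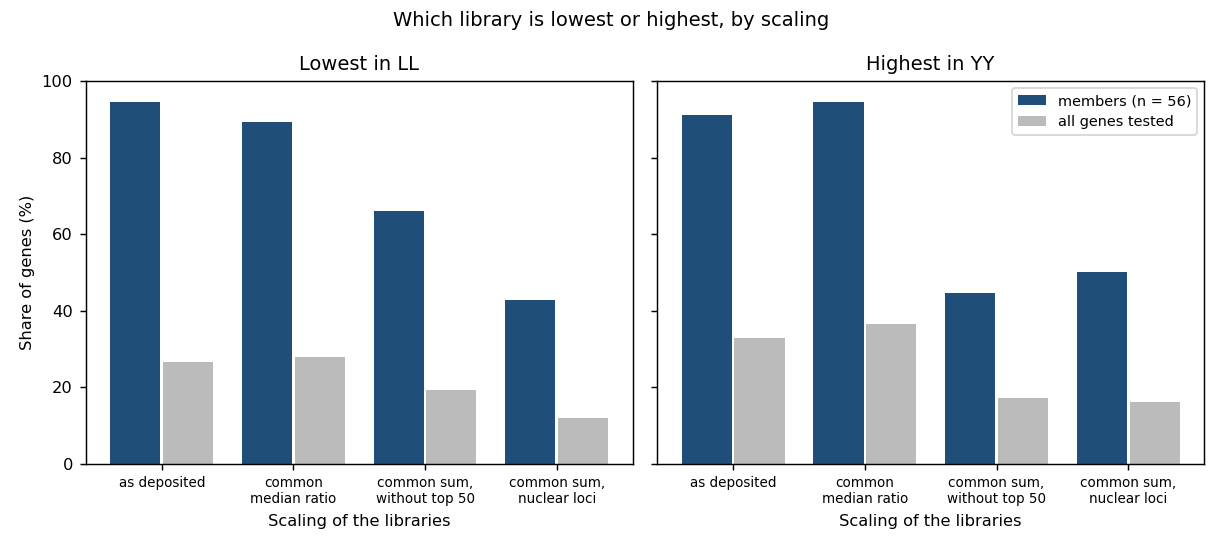
Share of the 56 members (dark bars) and of all genes averaging 1 FPKM or more (grey bars) that were lowest in LL (left) or highest in YY (right), in percent, with the libraries scaled in 4 ways. The members' share lies above that of all genes in each of the 8 pairs of bars and is smaller with the equal sums.

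Comparing the indigenous with the introduced type asked which genes separate local from commercial breeds. Limma on log2(FPKM + 1), fitted over the same 11652 genes, passed 0 of 56 members at a Benjamini-Hochberg adjusted p under 0.05, and 0 of all genes. At an unadjusted p under 0.05 it called 0 members, against 1.12% of all genes. Of the members, 21 were above 0 and 35 below 0 in indigenous minus introduced, where 52.4% of all genes were below 0. The median difference was −0.07 for large and −0.03 for small subunit genes, against −0.02 for all genes.

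Those medians near 0 were made of breeds far apart. Without YY the median over all members was 0.62, without LL it was −0.64, without DSP 0.08 and without TP −0.19. The types failed to overlap for 1 of 56 members, against 18.6% of all genes (9.47% with the indigenous type higher, the direction found). That member was MRPL22, whose bacterial counterpart lines the tunnel through which the new protein leaves. Its FPKM was 6.33 in LL, 7.21 in YY, 7.78 in TP and 9.99 in DSP, and limma gave a difference of 0.34 (SE 0.46, adjusted p = 0.9999). A second entry, without a name in the deposited table but called MRPL22 by its gene ID in the reference table, lies 32411 bases away on chromosome 16. It held 7.83 FPKM in LL, 19.8 in DSP, 26.5 in TP and 36.2 in YY, so the types overlapped there and the order was that of most members.

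The largest type differences did not pass the test. Of the large subunit genes, MRPL14 had the most positive difference, 0.47 (SE 0.94), and MRPL24 the most negative, −0.49 (SE 0.89). Of the small subunit genes, MRPS36 had 0.69 (SE 0.64) and MRPS31 −0.45 (SE 0.61). The limma adjusted p was 0.9999 for all 4. MRPL38, MRPL22 and MRPL13 followed MRPL14 on the positive side, down to 0.27, and MRPL28, MRPL42 and MRPL17 followed MRPL24, up to −0.34. MRPS14, MRPS24 and MRPS28 followed MRPS36, down to 0.26, and MRPS18B, MRPS34 and MRPS6 followed MRPS31, up to −0.26.

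The authors' deposited table gives 1 of 56 members, or 1.79%, a false discovery rate under 0.05, against 3.32% of all its genes (2.24% lower in the indigenous type, as this member is). That was MRPL28, a large subunit protein with a bacterial counterpart (ENSSSCG00000007984, chromosome 3, 41094504 to 41097389). In the authors' deposited table its pooled level was 42.4 FPKM in the indigenous and 78.2 in the introduced type, with a false discovery rate of 0.0328. By library it had 22.1 FPKM in LL, 33.1 in DSP, 51.7 in TP and 134 in YY. LL was thus the lowest and YY the highest, so both introduced libraries lay outside the indigenous pair, on opposite sides (limma difference −0.40, SE 0.93, adjusted p = 0.9999).

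Within the introduced type, the Yorkshire library had the higher value for all 56 members, where 49.8% of genes averaging 1 FPKM or more in the pair did. Single libraries give no error, so pairs of breeds carry no p-value. YY was at least 2-fold over LL on the log2(FPKM + 1) scale for 37 of 56 members, against 16.7% of all genes, and LL at least 2-fold over YY for 0, against 13.4%. With equal sums over nuclear loci, YY was at least 2-fold over LL for 20 members. On that scale the median of all genes in LL minus YY was 0.49, and their share past 2-fold is not given here. The median ratio of FPKM, YY over LL, was 2.70 for large and 2.65 for small subunit genes. It ran from 1.14 for MRPL22 to 6.71 for MRPL40 in the large subunit, and from 1.35 for MRPS5 to 7.06 for MRPS26 in the small.

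Within the indigenous type the size of the gap depended on scaling, but it moved little relative to all genes. As deposited, TP was above DSP for 43 of 56 members, where 39.5% of all genes were, and at least 2-fold above for 8, against 7.76% of all genes. That count was 19 with equal sums without the 50 most abundant genes, 17 with equal sums over nuclear loci and 4 with a pseudocount of 5. The share of all genes past 2-fold on those scales is not given here, so these counts have no background. With the sums, in that order, the median of all genes in DSP minus TP was −0.21 and −0.19. As deposited, DSP was at least 2-fold over TP for 0 members, against 15.6%. The median difference in DSP minus TP was −0.27 for large and −0.27 for small subunit genes, against 0.21 for all genes. Over all members it was −0.27 as deposited, −0.74 with equal sums without the 50 most abundant genes and −0.71 with equal sums over nuclear loci. The same values in LL minus YY were −1.34, −0.98 and −0.80. Relative to the median of all genes, DSP minus TP was −0.48 as deposited and between −0.52 and −0.49 with the other scalings. MRPS26 and MRPL40 had the most negative differences of their subunits in DSP minus TP (−1.50 and −1.37) and in LL minus YY (−2.74 and −2.64). The members next in rank were only partly shared. MRPL14 was among them in both pairs, but MRPS6 and MRPS31 followed MRPS26 in DSP minus TP, and MRPS2 and MRPS7 in LL minus YY.

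**Figure D3:**
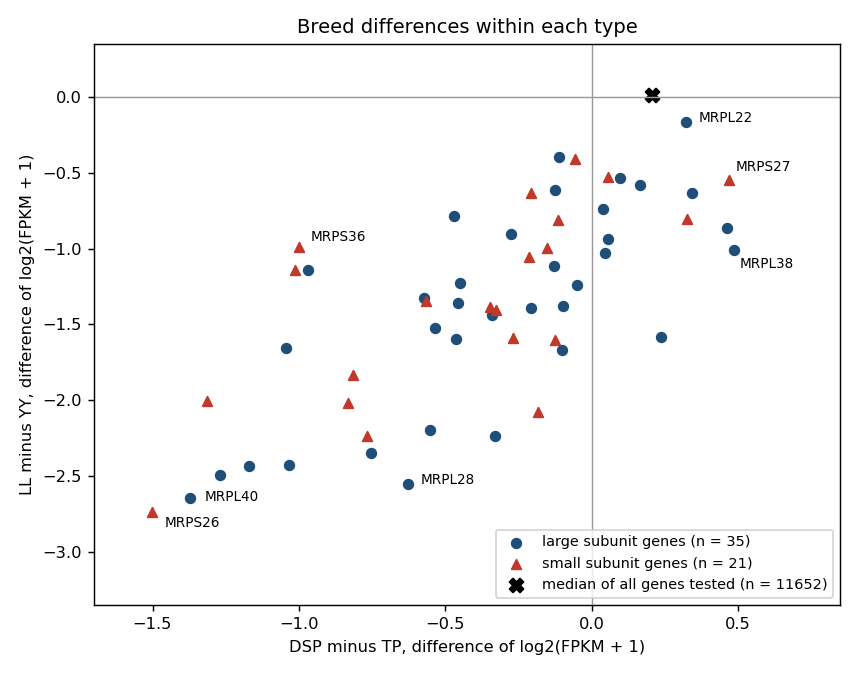
Difference of log2(FPKM + 1) in DSP minus TP (horizontal axis) and LL minus YY (vertical axis) for each member, by subunit, with the median of all 11652 genes tested as a cross. All 56 members lie below 0 on the vertical axis, while 13 lie above 0 on the horizontal axis.

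Large subunit genes for the catalytic core and the factor-binding stalk were lowest in LL and highest in YY, with YY over LL between 2.43 and 4.93 for those given here. MRPL2 and MRPL3, whose bacterial counterparts lie close to the site of peptide bond formation, had 13.6 and 12.9 FPKM in LL, 18.3 and 17.98 in DSP, 25.3 and 26.5 in TP and 33.2 and 39.1 in YY. MRPL16, also of that region, went from 11.9 FPKM in LL to 32.1 in YY, with 17.1 in DSP and 23.8 in TP. LL was the lowest and YY the highest for all 3. MRPL12 forms the stalk that recruits translation factors, and it had 10.5 FPKM in LL, 19.2 in DSP, 28.6 in TP and 51.6 in YY. Its partner MRPL10, which anchors the stalk, had 5.66 FPKM in LL, 11.7 in DSP, 9.74 in TP and 18.9 in YY. MRPL11, at the stalk base, had 16.8, 27.6, 29.6 and 45.3 FPKM in LL, DSP, TP and YY. The stalk genes shared the extremes LL and YY but not the order of the indigenous breeds.

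Around the exit tunnel, MRPL24 had 20.7 FPKM in LL, 25.9 in DSP, 44.4 in TP and 109 in YY, a ratio of 5.29 between YY and LL. MRPL17 had 9.69 FPKM in LL, 13.5 in DSP, 14.5 in TP and 32.9 in YY. MRPL47 had 5.05 FPKM in LL, 5.16 in DSP, 11.1 in TP and 12.3 in YY, so that the libraries formed a low pair and a high pair. The deposited locus of MRPL47 overlaps that of ACTL6A, and 3 other members also overlap a neighbour (MRPL21 with IGHMBP2, MRPL49 with SYVN1 and MRPS22 with COPB2), so their reads may be shared.

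In the central protuberance, the crest of the large subunit, MRPL40 and MRPL18 rank among the members with the widest range. MRPL40, found only in mitochondrial ribosomes (ENSSSCG00000022749, chromosome 14, 54670168 to 54672802), had 11.3 FPKM in LL, 14.5 in DSP, 39.0 in TP and 76.1 in YY. MRPL18 had 21.7 FPKM in LL, 38.6 in DSP, 48.8 in TP and 106 in YY. Both kept the order LL, DSP, TP, YY. MRPL38, another protein of this crest, was different, with its highest value in DSP, at 48.3 FPKM, against 44.3 in YY, 34.2 in TP and 21.5 in LL. MRPL46 was flatter, at 14.1 FPKM in LL, 20.5 in TP, 21.2 in DSP and 29.9 in YY. Its deposited locus lies 26 bases from that of MRPS11 on chromosome 1, and MRPS11, of the small subunit platform, had 14.8, 31.3, 20.8 and 39.3 FPKM in the same libraries.

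The most abundant large subunit genes, per length, were MRPL28, MRPL18, MRPL24, MRPL42 and MRPL20, with means of 60.3, 53.7, 50.1, 41.0 and 40.5 FPKM. MRPL42, found only in mitochondrial ribosomes, was nearly level in LL, TP and DSP, at 34.7, 34.9 and 35.8 FPKM, and stood at 58.7 in YY. MRPL20, needed in bacteria for early assembly, had 14.0 FPKM in LL, 22.1 in DSP, 46.3 in TP and 79.4 in YY. MRPL14, which contacts the small subunit, had 10.5 FPKM in LL, 23.3 in DSP, 57.6 in TP and 63.6 in YY. MRPL52 went from 6.90 FPKM in LL through 9.78 in DSP and 23.3 in TP to 41.8 in YY. At the low end MRPL36, the smallest by mean at 4.603 FPKM, had 2.58 in LL, 4.09 in DSP, 4.27 in TP and 7.46 in YY. MRPL19 and MRPL32 had means of 5.202 and 5.67 FPKM and ratios of 1.91 and 2.09 between YY and LL.

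Some large subunit genes had another lowest or highest library, or a narrow margin. MRPL9 was lowest in TP, with 9.996 FPKM against 10.8 in LL, 14.2 in DSP and 20.4 in YY. MRPL49 was also lowest in TP, at 8.32 FPKM against 8.37 in LL, a gap of less than 0.1 FPKM. MRPL50, found only in mitochondrial ribosomes, was highest in DSP, at 11.9 FPKM, against 11.0 in YY, 9.17 in TP and 6.76 in LL. MRPL1, whose bacterial counterpart sits on a mobile stalk where used tRNA leaves, spanned a range of 14.9 FPKM in LL to 19.96 in YY, with 16.0 in DSP and 17.4 in TP. MRPL21 was lowest in LL by a small margin, at 3.98 FPKM against 4.03 in DSP, with 9.37 in TP and 14.7 in YY.

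The small subunit gene with the highest level was MRPS25, found only in mitochondrial ribosomes (ENSSSCG00000023600, chromosome 13, 76734150 to 76739069). It had 54.2 FPKM in LL, 82.8 in DSP, 96.2 in TP and 114 in YY, the highest value of any member in DSP, TP and LL. In YY, MRPL28 was above it. MRPS33 followed with 30.2 FPKM in LL, 41.4 in DSP, 73.7 in TP and 110 in YY. MRPS26, also found only in mitochondrial ribosomes (ENSSSCG00000007165, chromosome 17, 36999750 to 37002049), had the widest ratio of all members. It had 14.3 FPKM in LL, 21.6 in DSP, 63.0 in TP and 101 in YY. Here again LL and DSP formed the low pair.

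Small subunit proteins that guide the messenger RNA differed in their ratios between YY and LL. MRPS2 had 2.49 FPKM in LL, 4.28 in DSP, 7.996 in TP and 15.5 in YY, a ratio of 6.21. MRPS24 had 22.5 FPKM in LL, 40.3 in DSP, 51.5 in TP and 60.4 in YY, a ratio of 2.68. MRPS5, whose bacterial counterpart helps to hold the message at the entry side, was flattest, at 14.9 FPKM in LL, 17.3 in DSP, 17.99 in TP and 20.1 in YY. All 3 kept the order LL, DSP, TP, YY.

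Of the other small subunit members with bacterial counterparts, MRPS7 had 6.19 FPKM in LL, 14.4 in DSP, 16.5 in TP and 29.4 in YY. MRPS6 had 7.78 FPKM in LL, 8.35 in DSP, 22.2 in TP and 34.3 in YY. MRPS15, which binds the ribosomal RNA directly, had 18.9 FPKM in LL, 26.4 in DSP, 47.8 in TP and 79.5 in YY. All 3 were more than 4 times as high in YY as in LL. MRPS14 had 11.5 FPKM in LL, 25.8 in DSP, 28.2 in TP and 37.2 in YY, and MRPS10 had 15.8, 24.0, 18.9 and 28.3 FPKM. MRPS18B had 15.7 FPKM in LL, 18.7 in DSP, 22.7 in TP and 49.3 in YY.

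Among small subunit genes without a bacterial counterpart, MRPS27, a protein with RNA-binding repeats, was highest in DSP, at 31.0 FPKM, against 26.6 in YY, 22.1 in TP and 17.9 in LL. MRPS31 was the only member lowest in DSP, at 4.42 FPKM against 6.07 in LL, 9.94 in TP and 14.6 in YY. MRPS22, in which human mutations cause a mitochondrial translation disorder, had the lowest small subunit mean, with 5.35 FPKM in LL, 5.52 in DSP, 6.52 in TP and 8.86 in YY. MRPS34 had 15.5, 17.3, 19.4 and 31.8 FPKM in LL, DSP, TP and YY. MRPS22 and MRPS34 kept the common order, which MRPS27 and MRPS31 did not.

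MRPS30 and MRPS36 carry small subunit names but are placed elsewhere. MRPS30 is a protein of the large subunit in mammals, and it had 9.58 FPKM in LL, 11.3 in TP, 11.7 in DSP and 14.3 in YY. MRPS36 is now known as a component of the 2-oxoglutarate dehydrogenase complex of the citric acid cycle and not of the ribosome (ENSSSCG00000023361, chromosome 16, 51279801 to 51301023). It was the only member highest in TP, at 34.9 FPKM, with 21.1 in YY, 17.0 in DSP and 10.1 in LL. Its type means were 25.9 ± 12.7 FPKM (SD, n = 2) and 15.6 ± 7.77 (SD, n = 2), with overlapping libraries.

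Large and small subunit genes were then compared directly in each library. After centring each gene on its mean over the 4 libraries, the median of the large subunit genes was −0.66 in LL, −0.21 in DSP, 0.09 in TP and 0.61 in YY. The small subunit median was −0.71 in LL, −0.15 in DSP, 0.24 in TP and 0.63 in YY. Large minus small was 0.05 in LL, −0.06 in DSP, −0.15 in TP and −0.02 in YY, so the subunits stayed within 0.15 of each other in every library. By type this difference was −0.10 ± 0.07 (SD, n = 2) in indigenous and 0.02 ± 0.04 (SD, n = 2) in introduced libraries, which did not overlap (two-sided exact permutation p = 0.333, the smallest that 2 against 2 allows). It lost this separation when subunits were assigned by position in the ribosome, with MRPS30 as large and MRPS36 left out (−0.16 in TP, −0.02 in YY, 0.01 in DSP and 0.07 in LL; exact permutation p = 0.667).

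In summed FPKM, the large subunit genes stood at 1.495 times the small in YY, 1.30 in LL, 1.29 in DSP and 1.24 in TP. The types did not overlap, with DSP and LL next to each other, and the type means of 1.26 ± 0.04 (SD, n = 2) and 1.40 ± 0.14 (SD, n = 2) gave a two-sided exact permutation p of 0.333, again the smallest possible. The 35 members with a bacterial counterpart had a median LL minus YY difference of −1.44 and the 20 found only in mitochondria −1.02, with 34 and 17 of them highest in YY. That difference between the classes was not tested.

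The gap between YY and LL was also set against locus length. Spearman's rho between locus length, introns included, and the log2 ratio of LL over YY was 0.45 across the 56 members and 0.23 across 7108 nuclear loci with means of 4 to 100 FPKM. With mean FPKM in place of locus length, rho was −0.41 across the members and −0.20 across those loci. These are correlations across genes of the same 2 libraries, and genes are not independent replicates. Among loci of 300 to 5000 bp the median LL minus YY difference was −1.67 for 19 members and −0.48 for 1139 other genes of that level. For members it was −1.45 from 5000 to 10000 bp (12 members) and −0.83 from 10000 to 30000 bp (12 members), so the order by length was not steady. Among loci of 30000 bp or more it was −1.14 for 13 members and 0.16 for 2771 other genes. The part of transcript length in the members' order was not tested.

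**Figure D4:**
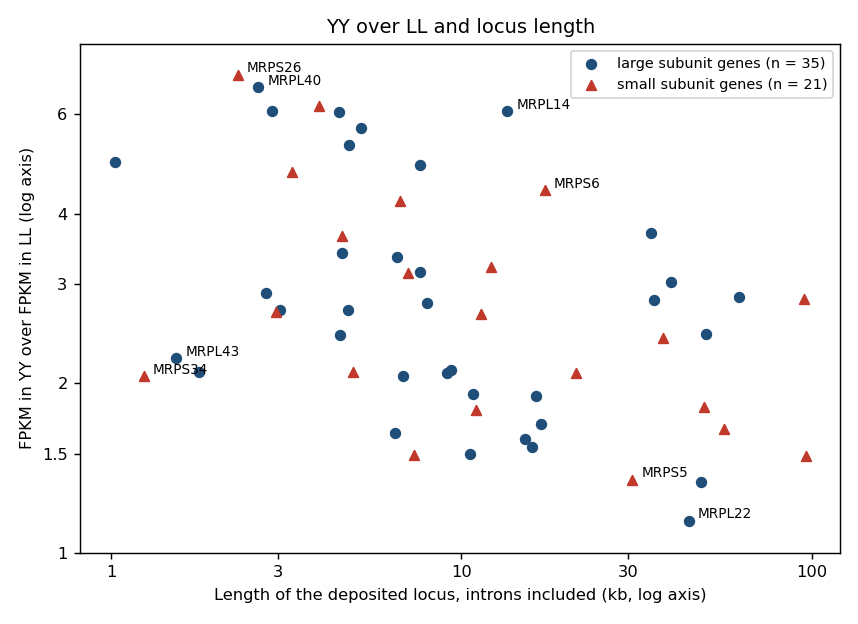
Ratio of FPKM in YY over LL (log axis) against the length of the deposited locus, introns included (kb, log axis), for each member, by subunit. MRPS26 and MRPL40, with short loci, have the widest ratios (7.06 and 6.71), and MRPL22 and MRPS5, with loci over 30 kb, have narrow ones (1.14 and 1.35).

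Mitochondrial ribosomal proteins that carry no MRPL or MRPS name in the table showed the same extremes. Of 7 entries that the reference table calls MRPL or MRPS by gene ID, 6 were lowest in LL and 7 highest in YY, with ratios of 2.93 to 4.62. MRPL30 had 23.4 FPKM in LL, 36.3 in DSP, 50.3 in TP and 68.6 in YY, and MRPL45, which links the ribosome to the inner membrane, had 16.5 in LL, 31.3 in DSP, 30.5 in TP and 51.9 in YY. MRPS18A, a relative of MRPS18B that sits in the large subunit, had 1.27 FPKM in LL, 1.74 in DSP, 2.05 in TP and 5.05 in YY. MRPL55 was the exception at the low end, with 2.05 FPKM in DSP and 2.19 in LL. Among subunits with unrelated names, the large subunit protein GADD45GIP1 had 6.01, 11.1, 19.3 and 35.1 FPKM in LL, DSP, TP and YY, and the small subunit protein CHCHD1 had 7.90, 13.7, 20.5 and 31.8. DAP3, a GTP-binding small subunit protein, had 10.1 FPKM in LL and 17.8 in YY, and PTCD3 was highest in DSP, at 24.96, with 17.7 in LL. OXA1L, the membrane insertase that receives new proteins, had 65.3 FPKM in LL, 77.8 in TP, 93.4 in DSP and 122 in YY.

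The genes that assemble or serve this ribosome were described in the same way, and their difference from the members was not tested. Limma passed 0 genes of every list at an adjusted p under 0.05. Of 22 tested assembly and rRNA modification genes, 8 (36.4%) were lowest in LL and 11 (50%) highest in YY, against 26.6% and 32.8% of all genes. Their median LL minus YY difference was −0.41, and 0 had an unadjusted limma p under 0.05, against 1.12% of all genes. MTERFD1, a regulator of ribosome assembly, had 10.05 FPKM in LL and 19.2 in YY, whereas MTERFD2 had 10.01 and 10.2. MPV17L2 and METTL15 had the largest type differences of this list, −0.68 (SE 0.58) and 0.51 (SE 0.41), with a limma adjusted p of 0.9999 for each. MPV17L2 had 4.12 FPKM in TP, 6.51 in LL, 8.15 in DSP and 14.951 in YY.

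Of 18 translation factors and RNA-processing proteins, 11 (61.1%) were lowest in LL and 10 (55.6%) highest in YY, against 26.6% and 32.8% of all genes. Their median LL minus YY difference was −0.47. TUFM, the elongation factor that brings tRNA to the ribosome, had 25.2 FPKM in LL, 39.6 in DSP, 44.5 in TP and 51.6 in YY. SLIRP and LRPPRC, which bind mitochondrial messenger RNA as a pair, were unlike each other: SLIRP had 99.8 FPKM in LL and 412 in YY, and LRPPRC 41.2 and 44.7. HSD17B10, a subunit of the mitochondrial tRNA-processing enzyme, had 18.8 FPKM in LL and 77.1 in YY. PDF and GFM2 had the largest type differences of the list, 0.66 and 0.55 (limma adjusted p = 0.9999 for each). LRPPRC was named for its partnership with SLIRP, after its values were seen.

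The mitochondrial aminoacyl-tRNA synthetases, which load tRNA, were lowest in LL in 7 (43.75%) and highest in YY in 4 (25%) of 16 cases. The shares of all genes were 26.6% and 32.8%. The median LL minus YY difference of the synthetases was −0.15. KARS, which also serves the cytosol, had 142 FPKM in LL and 266 in YY, and IARS2 had 33.4 and 30.2. HARS2 and NARS2 had the largest type differences, −0.39 and −0.42 (limma adjusted p = 0.9999 for each). Among 14 genes of mitochondrial transcription and its regulation, 4 (28.6%) were lowest in LL and 3 (21.4%) highest in YY, with a median of 0.02. The entries named TFAM and GABPA ran the other way. TFAM, which packages the mitochondrial genome, had 1811 FPKM in LL, 1344 in DSP, 43.3 in TP and 55.0 in YY. GABPA, a transcription factor of nuclear genes for mitochondria, had 92.0, 102, 11.8 and 25.5 FPKM in the same libraries. The deposited loci of these entries span only 693 and 1676 bp, introns included. Whether such short loci measure the whole genes was not tested. PPARGC1B and TFB2M had the largest type differences, 0.72 and −0.57 (limma adjusted p = 0.9999 for each).

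Cytosolic ribosomal proteins, which translate nuclear messages, and nuclear respiratory chain subunits also had most of their lowest values in LL and highest in YY. Of 62 cytosolic ribosomal protein genes 55 were lowest in LL and 60 highest in YY, and of 65 respiratory chain subunits 61 and 49 were. Their median LL minus YY differences were −2.32 and −1.82, against −1.34 for the members, and the difference between the lists was not tested. The type medians were −0.25 for cytosolic ribosomal proteins and 0.29 for the respiratory chain, against −0.06 for the members. Summed over members, the FPKM came to 4.59% of that of the cytosolic ribosomal proteins in YY, 5.70% in TP, 7.39% in LL and 8.17% in DSP. Against the respiratory chain subunits the share ran the other way at its ends, from 8.42% in DSP and 8.57% in TP to 9.91% in LL and 11.2% in YY. RPS28 and RPS27 were the most abundant of the former, with 2267 and 1492 FPKM in YY and 440 and 708 in LL, and RPL10L and RPS19 had the largest type differences, 0.68 and −0.56. ATP5B, of the ATP synthase, had 518 FPKM in LL and 1123 in YY, whereas NDUFS4 had 920 and 477, and ATP5G3 and NDUFS7 had the largest type differences, 0.70 and 0.69 (limma adjusted p = 0.9999 for all 4 type differences).

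Proteins made by the mitochondrial ribosome are encoded by 13 genes of the mitochondrial genome. Of these, 11 were lowest in LL and 0 highest in YY, with a median LL minus YY difference of −1.19. MT-CO1, a core subunit of cytochrome oxidase, had 11421 FPKM in LL, 18626 in DSP, 31534 in TP and 27575 in YY. MT-ATP8 and ND4L share their deposited loci with other genes and were lowest in YY, at 38219 and 5642 FPKM. The genes sharing those loci were lowest in LL. These were MT-ATP6 and MT-CO3 at the locus of MT-ATP8 (10881 and 6700 FPKM in LL), and MT-ND4 at that of ND4L (5150). MT-ND5 and ND4L had the largest type differences, 0.65 and 0.64 (limma adjusted p = 0.9999 for each). Unnamed entries of 961 and 1572 bp on the mitochondrial genome were lowest in YY, at 541 and 679 FPKM, against 793 and 1935 in LL. Whether they are the ribosomal RNA genes was not established here. Of 14 general mitochondrial genes, 8 were lowest in LL and 10 highest in YY, with a median of −1.03. In that list VDAC1, a pore of the outer membrane, had 218 FPKM in LL and 550 in YY, VDAC2 had 291 and 376, and TIMM44 and VDAC3 had the largest type differences, 0.57 and 0.32 (limma adjusted p = 0.9999 for each).

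**Figure D5:**
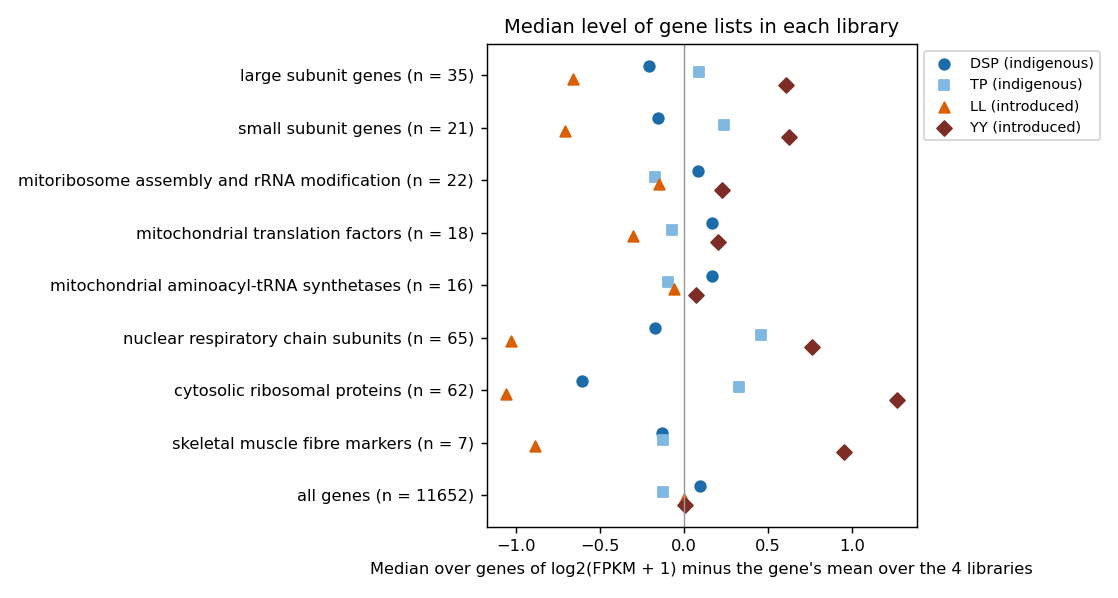
Median over the genes of each list of log2(FPKM + 1) minus the gene's mean over the 4 libraries (horizontal axis), with 1 symbol per library. Both subunits, the translation factors, the respiratory chain, the cytosolic ribosomal proteins and the 7 muscle fibre markers have LL lowest and YY highest. For the translation factors DSP lies close to YY, at 0.17 against 0.20. All genes together lie between −0.12 and 0.10.

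Some library-wide measures and marker lists had their extremes in the same libraries as the members, and others did not. The FPKM summed to between 880279 in TP and 1450764 in DSP, and nuclear loci under 300 bp took 1.39% of that sum in TP, 5.55% in YY, 17.7% in LL and 20.6% in DSP. Of 7 detected skeletal muscle fibre markers 6 were lowest in LL and 5 highest in YY, and their summed level was 36889 FPKM in LL, 79853 in DSP, 87985 in TP and 116542 in YY. ACTA1, the actin of skeletal muscle, had at least 16778 FPKM in each library, and MYLPF, TNNT3, MYH2, MYH4 and MB had no row with their name. Fibroblast and matrix markers (5 of 5 detected) summed to 131 FPKM in YY and between 538 and 890 in the others, and 0 of 5 were highest in YY. Endothelial markers (4 of 5 in the table) summed to 31.2 FPKM in YY and between 61.7 and 91.7 in the others, macrophage markers (3 of 5) to between 5.89 and 20.9, and smooth muscle markers (4 of 4) to between 48.4 and 194. Red blood cell genes (3 of 3) summed to 80.9 FPKM in YY and 528 in TP, immediate early genes (4 of 4) to 205 in DSP and 1306 in TP, and of 2 adipocyte markers found of 5, PLIN1 ranged from 1.014 in YY to 11.5 in TP and LEP was listed at 0 in 3 libraries. The part of these measures in the order of the members was not tested.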

How the data were processed

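Longissimus dorsi RNA of 4 pig breeds, with 1 library each, was analysed. TopHat is named in the submitters' processing notes. Not given in the sources used here are its version, the build, the gene annotation and the program that made the FPKM values. The authors deposited FPKM per breed, the mean FPKM of each type, their ratio (indigenous over introduced), a p-value and a false discovery rate. The deposited type means matched the breed means within 0.1% for all 56 members. Depth is unknown. Coordinates are the deposited ones, whose build is not stated.

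Members and gene lists were chosen with earlier results of these data known. Names come from the deposited table for members, and for comparison lists also from a reference table by gene ID (12322 genes named in the deposited table and 1638 by the reference). Cytosolic ribosomal proteins were symbols starting RPL, RPS or RPLP followed by a digit, and RPSA, without kinases and binding proteins. The type test was limma 3.58.1 with a trended prior, run in R 4.3.3 on log2(FPKM + 1) over genes averaging 1 FPKM or more, with Benjamini-Hochberg adjustment. Breeds served as replicates. No label says whether a library is 1 animal, so p-values measure the spread between these libraries. Single values per library were compared by exact permutation (scipy 1.17.1). Pairs of breeds had no test, and a 2-fold difference on that scale counted as called. The limma step was tested on simulated data, where the check was on the mean size of planted differences. The share of planted differences recovered is not given here. From each subunit, the named genes were the 5 highest and 3 lowest by mean, the 4 largest type differences and the 3 largest breed differences per direction. From each list they were the 2 most abundant and the 2 with the largest type difference. Further members were named for their role or for breaking the pattern, after their values were seen. Planned promoter and protein descriptions were not made, as no sequences were used here.

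Alternatives were other pseudocounts, filters and scalings, summed entries, each library left out, other priors, subunits by position and, chosen after seeing the data, names added from the reference table.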

Additional observations from a re-analysis of the deposited data

How the results depend on the processing

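Across the alternatives, 0 members passed the type test, and 0 had an unadjusted p under 0.05. The limma adjusted p of the type differences followed stayed between 0.973 and 0.99999. Leaving out 1 library moved the median type difference between −0.64 and 0.62 for all members, −0.65 and 0.56 for large and −0.52 and 0.74 for small subunit genes. The positive ends are those without YY. Large minus small by type (−0.12) ranged from −0.19 to −0.0307, and was −0.0295 with names from the reference table added. Type differences of single members ranged with 1 library left out from −0.77 to 1.72 for MRPL14, −1.66 to 0.69 for MRPL24, −1.67 to 0.88 for MRPL28 and −1.02 to 0.12 for MRPS31, so all 4 changed sign. Those of MRPL22 (0.18 to 0.50) and MRPS36 (0.19 to 1.19) stayed above 0.

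The median of all members in DSP minus TP (−0.27) was −0.44 with the median ratio, −0.74 with the common sum without the 50 most abundant genes and −0.71 with the common sum over nuclear loci. LL minus YY (−1.34) became −0.98 and −0.80 with these sums and −1.07 with a pseudocount of 5. DSP minus LL (0.45) became 0.17 and −0.00853 with the sums, and 0.35 with a pseudocount of 5. By subunit it was −0.000907 for large and −0.0162 for small genes over nuclear loci. TP minus YY (−0.53) became 0.0266 and −0.000282 with the sums, and −0.41 with a pseudocount of 5. For small subunit genes it was 0.0922 and 0.0650. So the order of DSP against LL and of TP against YY depended on scaling. Members highest in YY numbered 25 and 28 with the sums, and those lowest in LL 24 over nuclear loci. YY was at least 2-fold over LL for 20 members over nuclear loci. TP was at least 2-fold over DSP for 19 and 17 with the sums and 4 with a pseudocount of 5. For these alternatives the share of all genes past 2-fold is not given here. As deposited, TP was at least 1.5-fold over DSP for 15 members, against 1815 of the 11652 genes tested. Each scaling shifts whole libraries, and the median of all genes moved with it. Relative to that median, DSP minus TP stayed between −0.52 and −0.48 and LL minus YY between −1.37 and −1.29. DSP minus LL stayed between 0.28 and 0.33 and TP minus YY between −0.33 and −0.25. The cause of these differences between libraries was not tested.

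No paired analysis was possible because the labels match no indigenous library to an introduced one. With 1 library per breed and unknown depth, differences between breeds have no error.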
